A study of Oryza sativa with 12 samples.

Results

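NAR2.2 (also OsNAR2.2, LOC4336175) is a rice gene annotated as a partner of nitrate transporters, and it is followed here across 6 conditions of embryo germination. It was chosen by name after its values were known from an earlier reading of the same arrays, and it is 1 probe set (called a probe here) of 36643. Its own levels and differences are therefore a description and carry no test. Embryos of Oryza sativa cultivar Dongjin were taken from whole seeds and germinated for 24 h in darkness at 28 °C, in 10 mM calcium chloride with 60 mM sugar. In GlcDNP and MtlDNP the medium held glucose or mannitol and 2,4-dinitrophenol (DNP) at 0.08 mM, in air. DNP carries protons across the inner mitochondrial membrane, so that respiration goes on without making ATP. In GlcAC and MtlAC the sugar was the same and AC, which the labels do not spell out, is read as the protocol's remaining incubation, submerged in medium flushed with nitrogen. In Glc and Mtl the embryos germinated in air with glucose or with mannitol, a sugar alcohol that gives the same concentration of solute. The protocol names 150 to 200 embryos per incubation and lists no nitrate, ammonium or other nitrogen source in the medium. Each condition has 2 arrays, 12 in all, and the design text calls them technical replicates, so that errors and p-values measure the spread between arrays and may not cover the spread between batches of embryos.

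NAR2 proteins, also called NRT3, are small membrane-bound proteins that high-affinity nitrate transporters of the NRT2 family need in order to reach the plasma membrane and to take up nitrate from dilute solution. Rice has the partner genes NAR2.1 and NAR2.2, and NAR2.1 is the better studied of them in roots. Nitrate that enters the cell is reduced to ammonium, which AMT1 transporters also bring in directly, and ammonium is built into glutamine by glutamine synthetase. In Arabidopsis roots, NRT2 and AMT1 transcripts are known to respond to sugar as well as to nitrogen supply.

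NAR2.2 was high in 1 condition, glucose in air, and low in the other 5. Its log2 RMA value, the normalised array signal deposited by the submitters, was 5.07 and 4.66 on the Glc arrays, against 3.37 and 3.05 on the Mtl arrays. With DNP it was 3.00 and 3.10 in GlcDNP, against 2.90 and 3.26 in MtlDNP. Under AC it was 3.14 and 3.25 in GlcAC, against 3.3 and 3.49 in MtlAC. The 2 Glc arrays lay above all 10 other arrays, with a gap of 1.18 between the lower Glc array and the highest of the others. The other 10 arrays spanned 0.58, which is less than that gap.

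**Figure D1:**
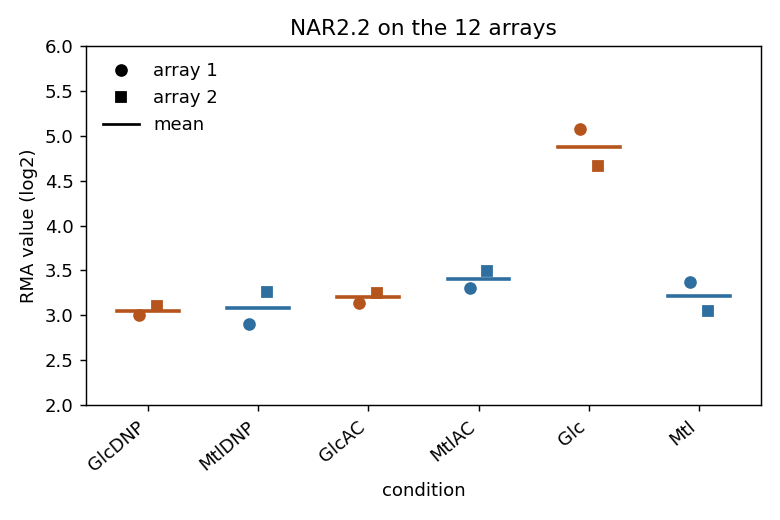
NAR2.2 on each of the 12 arrays, as the deposited RMA value on a log2 scale that starts at 2, by condition. Circles and squares are the first and second array, lines their mean, and orange and blue mark glucose and mannitol. The Glc arrays, at 5.07 and 4.66, stand above the other 10, which lie between 2.90 and 3.49.

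By mean level the order was Glc at 4.87 ± 0.29, MtlAC at 3.40 ± 0.13, Mtl at 3.21 ± 0.22, GlcAC at 3.20 ± 0.079, MtlDNP at 3.08 ± 0.25 and GlcDNP at 3.05 ± 0.073 (SD, n = 2 arrays each). Glc stood 1.47 above MtlAC, its neighbour in that order, with arrays apart. Each later pair of neighbours overlapped on their arrays, so their order is not shown. Among the other pairs of low conditions, both MtlAC arrays lay above both arrays of GlcAC, GlcDNP and MtlDNP, and both GlcAC arrays above both GlcDNP arrays. The 5 low means spanned 0.34. The 10 low values lay at the 39.4th to 55.4th percentile of all probes on their own array, and the Glc values at the 84.1st and the 78.0th. The deposited table used here holds no detection calls. Whether the low values are above background is therefore not shown, so the size of a fold against them is not settled.

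The sugar difference of NAR2.2 was present in air and not seen in the other environments. Glucose over mannitol was 1.66 ± 0.21 in log2 in air (SE of the fit across all probes), a fold of 3.15. With DNP the same difference was -0.03 ± 0.21, with overlapping arrays. Under AC it was -0.20 ± 0.21, and both GlcAC arrays lay below both MtlAC arrays. The sugar difference with DNP minus that in air was -1.68 ± 0.29, and the one under AC minus that in air was -1.85 ± 0.29. These last values share the Glc and Mtl arrays and are not independent of each other.

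Seen by environment, NAR2.2 was lower with DNP and under AC than in air where glucose was present, and no such difference was seen with mannitol. With glucose, DNP over air was -1.82 ± 0.21, at 3.05 in GlcDNP against 4.87 in Glc, which is 3.52-fold lower. AC over air with glucose was -1.67 ± 0.21, at 3.20 in GlcAC against 4.87 in Glc, or 3.18-fold lower. With mannitol, DNP over air was -0.13 ± 0.21 and AC over air was 0.18 ± 0.21, and the arrays overlapped in both. The 5 differences that contain Glc move with its 2 arrays: without the first, the air sugar difference is 1.45, and without the second it is 1.86. Array spread differed between environments, with an SD over all probes of 1.639 to 1.675 with DNP and 1.668 to 1.774 under AC, against 1.808 to 1.857 in air, and after quantile re-normalization the air sugar difference of NAR2.2 was 1.56. Each of its 9 differences, those between environments included, then moved by less than 0.1925, its residual SD in the fit.

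The other gene of the pair, NAR2.1 (LOC4329861), was also highest in Glc, by a smaller margin. It read 4.86 and 4.73 in Glc, against 3.76 and 4.29 in Mtl. The values were 4.33 and 4.15 in GlcDNP against 4.36 and 4.53 in MtlDNP, and 4.07 and 4.08 in GlcAC against 4.34 and 4.27 in MtlAC. Both Glc arrays lay above the other 10, as for 6.92% of all probes. With DNP and under AC the glucose arrays of NAR2.1 lay below the mannitol arrays. A gene was called where limma, fitted to all probes with Benjamini-Hochberg adjustment, gave an adjusted p under 0.05 and a log2 difference of at least 1. The sugar difference of NAR2.1 in air, 0.77 ± 0.20, was not called (limma adjusted p = 0.089). Nor was its change in sugar difference with DNP (-0.97 ± 0.28, limma adjusted p = 0.194) or under AC (-0.99 ± 0.28, limma adjusted p = 0.141). With glucose, AC over air was -0.72 ± 0.20 (limma adjusted p = 0.0541) and DNP over air was -0.55 ± 0.20 (limma adjusted p = 0.0697). Over the 6 condition means NAR2.1 correlated with NAR2.2 at r = 0.81, a description over conditions that share their arrays.

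None of the NRT2 transporter genes found by name, NRT2.1, NRT2.2 and NRT2.3, whose products carry the nitrate, was called in any of the 9 contrasts. Any further NRT2 gene had no usable name here and was not read. NRT2.3 (LOC4324249) read 3.93 and 3.85 in Glc, against 3.29 and 3.39 in Mtl, a difference of 0.55 ± 0.18 (limma adjusted p = 0.21). With mannitol it was 4.10 and 3.77 in MtlDNP, against 3.29 and 3.39 in Mtl, and this difference of 0.59 ± 0.18 passed the p threshold (limma adjusted p = 0.0341) but not the size threshold. So NRT2.3 was higher than Mtl both with glucose and with DNP, a pattern that NAR2.2 did not have. NRT2.1 (LOC4328051) had condition means of 1.76 to 2.35 and NRT2.2 (LOC4328052) of 1.11 to 1.68. Their sugar differences in air were 0.02 ± 0.24 and 0.19 ± 0.24. NRT2.1 and NRT2.2 are adjacent genes with near-identical coding sequences, so their probes may not tell them apart.

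Of the AMT1 ammonium transporter genes, OsAMT1;1 (LOC4336365) came nearest to the NAR2.2 pattern, with r = 0.88 over the 6 condition means. It read 4.22 and 4.27 in Glc, against 2.87 and 3.66 in Mtl. In the other conditions it was 2.67 and 2.73 in GlcDNP against 2.73 and 2.40 in MtlDNP, and 2.50 and 2.59 in GlcAC against 2.76 and 2.1 in MtlAC. Both Glc arrays were above the other 10 (as for 6.92% of all probes), the Mtl arrays came next, and the DNP and AC arrays overlapped. OsAMT1;1 fell with DNP in the presence of glucose, to 2.70 in GlcDNP against 4.24 in Glc, 2.91-fold lower (-1.54 ± 0.28, limma adjusted p = 0.00343). It fell likewise under AC, to 2.54 in GlcAC against 4.24 in Glc, 3.25-fold lower (-1.70 ± 0.28, limma adjusted p = 0.00555). Both calls held under every alternative run. The sugar difference in air, 0.98 ± 0.28, was not called (limma adjusted p = 0.135).

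With mannitol, DNP over air was -0.70 ± 0.28 for OsAMT1;1 (limma adjusted p = 0.0866) and AC over air was -0.83 ± 0.28 (limma adjusted p = 0.0596), where NAR2.2 gave -0.13 and 0.18. Without the first Mtl array both were called, at -1.09 and -1.23, and without the first MtlAC array the second was, at -1.16. OsAMT1;2 (LOC4330008) and OsAMT1;3 (LOC4330007), which lie next to each other, were not called in any contrast. Their sugar differences in air were -0.05 ± 0.25 and 0.19 ± 0.26. OsAMT1;2 had 1 high MtlAC array, at 2.86 beside 2.06; without that group's second array it was called lower with glucose under AC, at -1.06, and higher under AC than in air with mannitol, at 1.07.

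Over the 7 genes of NAR2.1, NRT2 and AMT1 found by name and with a probe, limma called 0 for sugar in air, where 2% of all probes were called, and 3 had an unadjusted p under 0.05. Their median sugar difference in air was 0.19, against 0.04 over all probes. For DNP over air with glucose 1 of 7 was called, lower (14% of all probes), and for AC over air with glucose 1 of 7, lower (5.25% of all probes); both are OsAMT1;1. For DNP over air with mannitol and AC over air with mannitol 0 of 7 were called, beside 16.3% and 12.2% of all probes, and 3 and 2 had an unadjusted p under 0.05. Sugar with DNP and sugar under AC called 0 of 7 (0.0136% and 2.66% of all probes), with 0 and 1 at an unadjusted p under 0.05. The change in sugar difference called 0 of 7 with DNP and 0 of 7 under AC (1.19% and 1.15% of all probes), and 2 genes in each had an unadjusted p under 0.05. Medians of that change were -0.53 with DNP and -0.61 under AC, against -0.05 over all probes in both. With 7 genes these counts are too small to stand apart from the shares over all probes. Of all 36643 probes, 4812 had an unadjusted p under 0.05 for sugar in air, and 2622 and 6177 for sugar with DNP and under AC. The numbers were 16223 and 14055 for DNP and AC over air with mannitol, and 4229 and 5338 for the change in sugar difference. Unadjusted counts for the other lists are to be read beside these.

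**Figure D2:**
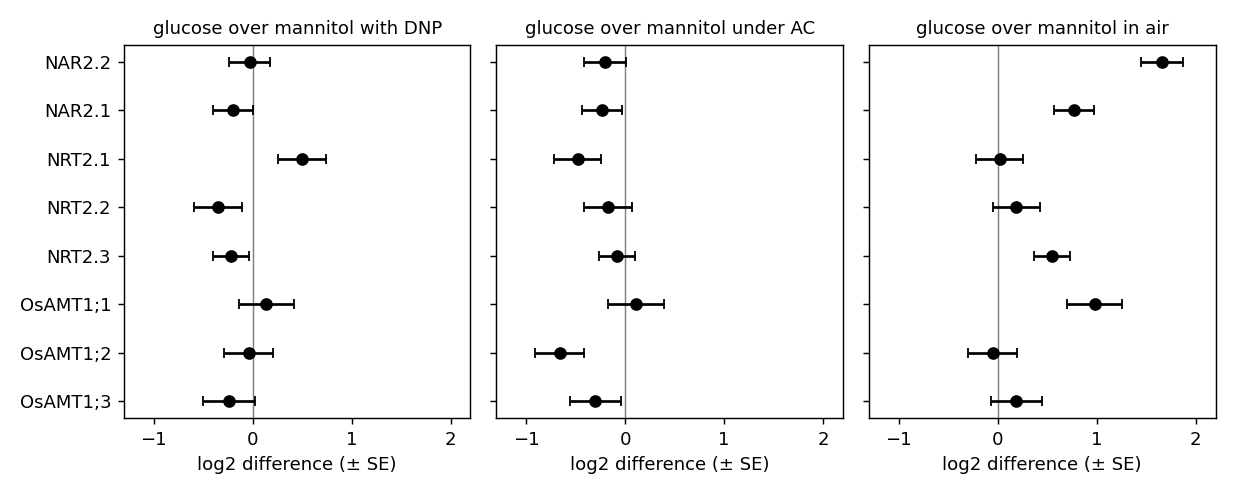
Glucose-over-mannitol differences (log2) of NAR2.2 and the 7 related transport genes with DNP, under AC and in air. Points are limma estimates and bars their SE. In air NAR2.2 stands at 1.66, ahead of OsAMT1;1 at 0.98 and NAR2.1 at 0.77, and with DNP and under AC all 8 genes lie between -0.66 and 0.50.

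Of the genes of the next step, from nitrate to glutamine, OsGS1;1, OsGS1;3 and GS2 were called in at least 1 contrast between environments, and NIA1, OsGS1;2 and Fd-GOGAT in no contrast. A further nitrate reductase gene, nitrite reductase and NADH-GOGAT could not be matched by name, so the list is not complete. None of 6 measured members was called for sugar in air, beside 2% of all probes, and 2 had an unadjusted p under 0.05. The list's median was 0.37, against 0.04 over all probes. NIA1 (LOC4345795), a nitrate reductase gene, stood at 2.58 ± 0.22 in Glc and 2.16 ± 0.079 in Mtl (SD, n = 2 arrays each), a difference of 0.41 that was not called. OsGS1;1 (LOC4330649), a cytosolic glutamine synthetase gene, had the widest range of the list. It read 8.90 and 9.11 in Glc, against 7.97 and 7.58 in Mtl, and 7.62 and 7.74 in GlcAC against 6.58 and 6.51 in MtlAC. With DNP it read 6.73 and 5.83 in GlcDNP, against 6.29 and 5.77 in MtlDNP.

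OsGS1;1 was thus higher with glucose on every array in air and under AC, while NAR2.2 was so in air alone. Its sugar differences, 1.23 ± 0.29 in air (limma adjusted p = 0.0671) and 1.13 ± 0.29 under AC (limma adjusted p = 0.0693), passed the size but not the p threshold. It fell with DNP, by 2.73 ± 0.29 with glucose (limma adjusted p = 0.000147) and by 1.75 ± 0.29 with mannitol (limma adjusted p = 0.00198). It also fell under AC with glucose (-1.33 ± 0.29, limma adjusted p = 0.0217) and with mannitol (-1.23 ± 0.29, limma adjusted p = 0.0149). The AC calls were lost after quantile re-normalization, at -1.06 and -0.76, the first without any 1 of its 4 arrays (-1.22 to -1.44) and the second without the first Mtl array (-1.04) or either MtlAC array (-1.26 and -1.20).

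Of the same list, OsGS1;3 (LOC4333896) rose with DNP in glucose, to 3.90 in GlcDNP against 2.64 in Glc (1.26 ± 0.23, limma adjusted p = 0.00299); without the first GlcDNP array the difference was 0.99 and below the size threshold. GS2 (LOC4337272), the plastid glutamine synthetase gene, fell under AC with glucose, to 3.18 in GlcAC against 4.22 in Glc (-1.05 ± 0.21, limma adjusted p = 0.015), a call lost after quantile re-normalization (-0.99) and without any 1 of the 4 arrays (-0.91 to -1.18). In all, 1 of 6 members was called higher and 1 lower for DNP over air with glucose, beside 4.67% and 9.28% of all probes. For DNP over air with mannitol the counts were 0 higher and 1 lower (5.91% and 10.4% of all probes). AC over air gave 0 higher and 2 lower with glucose (2.01% and 3.25% of all probes), and 0 higher and 1 lower with mannitol (3.56% and 8.65% of all probes). The medians over the list were -0.62, -0.43, -0.81 and -0.50 in these 4 contrasts, against 0.10, 0.15, 0.03 and 0.10 over all probes.

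The list of other ammonium and urea transporters and of nitrogen regulators held 12 measured genes. For sugar in air 0 of these genes were called, beside 2% of all probes, and 0 had an unadjusted p under 0.05. Their air sugar differences ran from -0.39 to 0.46. The 1 call in this list was NIGT1 (LOC4329184), a GARP-type repressor of nitrate-response genes, higher with DNP in mannitol, at 5.13 in MtlDNP against 4.02 in Mtl (1.11 ± 0.22, limma adjusted p = 0.00468). In that contrast 5.91% of all probes were called higher, so 1 call of 12 says little about the list. With glucose DNP over air was 0.99 ± 0.22 for NIGT1 (limma adjusted p = 0.0095), just under the size threshold. NIGT1 thus stood lowest in the 2 air conditions, at 4.27 in Glc and 4.02 in Mtl, while NAR2.2 was high in Glc and low in Mtl. A link between NIGT1 and NAR2.2 was not tested. NLP1, NLP2 and NLP3, members of the NIN-like protein family to which nitrate-sensing transcription factors belong, had air sugar differences of -0.06, 0.14 and 0.00 and were not called.

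Markers of tissue were read beside these values, since in bulk RNA fewer cells of a type and less RNA per cell cannot be told apart. Embryo markers were present, with OLE18, an oil body protein gene, at 6.60 in Glc and 6.42 in Mtl, and Emp1, a late embryogenesis gene, at 5.99 in Glc and 5.96 in Mtl. Of 5 embryo markers 4 rose with DNP in either sugar, Emp1 by 2.47 ± 0.17 with glucose and 2.52 ± 0.17 with mannitol, where 4.67% and 5.91% of all probes were called higher. The other, OSH1, was not called, and both its GlcDNP arrays (3.06 and 2.99) lay below both its Glc arrays (3.56 and 3.29). Under AC 4 of 5 rose with mannitol (3.56% of all probes higher), Emp1 by 1.80 ± 0.17, and 3 of 5 without the first MtlAC array, where LEA19 was 0.98. With glucose 1 of 5 rose under AC (2.01% of all probes higher), which was Emp1 at 1.16 ± 0.17. None of the 5 was called by limma for sugar in air, beside 2% of all probes, and 0 had an unadjusted p under 0.05. The mean over 9 endosperm markers was 1.98 and 1.97 on the Glc arrays, against 2.32 and 2.25 on the Mtl arrays, and in the other conditions it was 2.01 to 2.82. GLUA-1, a glutelin storage protein gene, was the 1 of 9 endosperm markers called for sugar in air (1.53% of all probes lower), at 2.40 in Glc against 3.95 in Mtl (-1.55 ± 0.28, limma adjusted p = 0.0176), a call lost without the first Glc array (-1.31) or either Mtl array (-1.6 and -1.49). With glucose GLUA-1 also rose with DNP (1.84 ± 0.28, limma adjusted p = 0.00111) and under AC (1.12 ± 0.28, limma adjusted p = 0.0367). The AC call was lost under quantile re-normalization (1.08), the replicate block, the compared arrays alone, and without any 1 of the 8 air and AC arrays (0.87 to 1.36). Under AC 2 of 9 were called for sugar, both lower with glucose, where 2.66% of all probes were called. These were the storage protein genes GLUB-4, at 1.14 in GlcAC against 2.63 in MtlAC (-1.49 ± 0.24), and prolamin, at 2.32 in GlcAC against 3.82 in MtlAC (-1.50 ± 0.26). The prolamin call was lost without any 1 of the 4 AC arrays (-1.44 to -1.55), and the GLUB-4 call without either GlcAC array or the second MtlAC array (-1.23 to -1.58) and with the AC arrays alone. Green shoot markers were low, with a mean over 5 genes of 2.2 and 2.22 in Glc against 2.46 and 2.3 in Mtl. They include GS2, also counted in the list from nitrate to glutamine, at 4.22 in Glc against 3.70 in Mtl. For sugar in air limma called 0 of 5, beside 2% of all probes, and 2 had an unadjusted p under 0.05. The differences of these 5 markers ran from -1.05 to 0.52.

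Root markers differed in how they followed NAR2.2, with r over the 6 condition means from -0.668 (Lsi1) to 0.876 (QHB). QHB (also OsWOX9, LOC4324824), a homeobox gene expressed in the quiescent centre of the rice root tip, read 6.03 and 5.83 in Glc against 4.43 and 4.52 in Mtl. It was 3.90 and 3.24 in GlcDNP against 3.47 and 3.36 in MtlDNP, and 4.18 and 4.50 in GlcAC against 3.37 and 3.59 in MtlAC. QHB rose with glucose in air (1.45 ± 0.23, limma adjusted p = 0.00846), a call lost without the first Glc array (1.36) or either Mtl array (1.41 and 1.5). With glucose it fell with DNP (-2.36 ± 0.23, limma adjusted p = 8.36e-05) and under AC (-1.59 ± 0.23, limma adjusted p = 0.00272). With mannitol it also fell with DNP (-1.06 ± 0.23, limma adjusted p = 0.00737), where NAR2.2 gave -0.13, and AC over air was -0.99 ± 0.23 (limma adjusted p = 0.0129), just under the size threshold.

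Of all 10 measured root markers, 1 was called higher and 0 lower for sugar in air, beside 0.469% and 1.53% of all probes. Their mean value was 3.54 and 3.42 on the Glc arrays, against 3.19 and 3.19 on the Mtl arrays. In the other 4 conditions that mean was 3.35 to 3.61, so it was low in Mtl alone and not high in Glc alone. With glucose 1 of 10, QHB, was called lower with DNP and likewise under AC, beside 9.28% and 3.25% of all probes. For DNP over air with mannitol 2 of 10 were called higher and 1, QHB, lower, beside 5.91% and 10.4% of all probes. The other root markers called in any contrast rose with DNP in mannitol, where NAR2.2 gave -0.13. These were WOX5 (1.10 ± 0.21, limma adjusted p = 0.00396) and SHR2 (1.19 ± 0.26, limma adjusted p = 0.00766; 0.97 and no longer called without the first MtlDNP array). The part of root tissue in the NAR2.2 values was not tested.

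**Figure D3:**
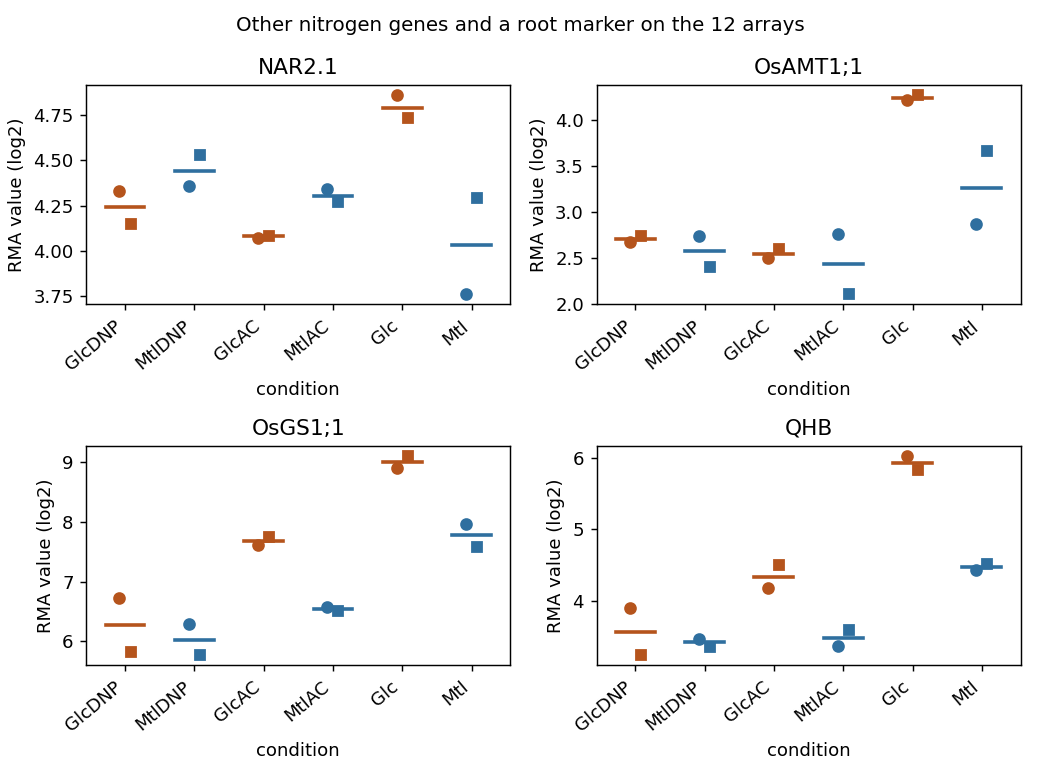
NAR2.1, OsAMT1;1, OsGS1;1 and the root marker QHB on each array, as RMA values (log2) by condition, each panel with its own axis that does not start at 0. Circles and squares are the first and second array, lines their mean, and orange and blue mark glucose and mannitol. In all 4 panels both Glc arrays lie above the other 10, as for 6.92% of all probes. OsGS1;1 and QHB also have GlcAC above MtlAC.

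To see which genes followed NAR2.2 most closely, Pearson's r over the 6 condition means was computed for the 977 probes that have 1 gene, a usable name and a range of condition means of at least 1. Only 4 reached r of at least 0.95 before rounding, and the 10 highest ran from 0.985 to 0.918. These correlations describe 6 points that share arrays and are set mainly by the single high condition, Glc, so they carry no p.

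The most alike was BIP119 (also BKI1, r = 0.985), whose Arabidopsis namesake BKI1 is an inhibitor of the brassinosteroid receptor. It stood at 2.3 in Glc and 1.15 to 1.43 elsewhere, below the median of all values (3.275) in every condition, so it is a dim probe. Next came RPA2A (0.963) and RPA1B (0.952), subunits of the replication protein A complex that coats single-stranded DNA, and MEAL1 (also MEL1, 0.961), an Argonaute gene known from rice germ cells. MEAL1 had an air sugar difference of 1.56 ± 0.34, close to that of NAR2.2, and differences of -2.00 ± 0.34 for DNP over air and -2.12 ± 0.34 for AC over air with glucose. Nrat1 (0.95), an aluminium transporter gene of root cells, stood at 4.15 in Glc and 2.44 to 2.96 elsewhere. The other 5 were the expansin genes EXLA3 (0.946) and EXPB7 (0.944), which loosen cell walls, a peroxidase gene also named PRX74 (0.945), the origin recognition complex gene ORC3 (0.943) and the alpha-tubulin gene TubA (0.918). The peroxidase gene and ORC3, at 3.14 and 3.15 in Glc, also stayed below the median of all values in every condition. Most nitrogen genes of the lists above, NAR2.1 and the NRT2 genes among them, had a range under 1 and so could not enter. None of those that could was among these 10, and OsAMT1;1 at 0.88 came nearest.

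**Figure D4:**
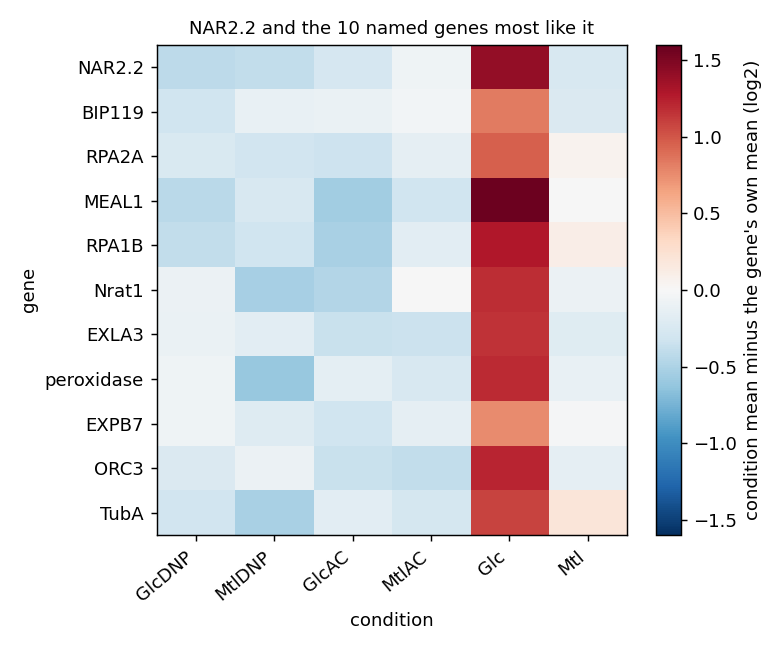
Condition means of NAR2.2 and the 10 named genes most like it, each minus that gene's own mean over the 6 conditions (log2, red above and blue below). Every gene is red in Glc, and TubA, RPA2A and RPA1B are also slightly above their mean in Mtl.

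The choice of measure mattered little except for ranks. After quantile re-normalization the same 10 genes were the 10 highest. Over the 12 single arrays 7 of them were among the 10 highest, and r over all 10 genes ran from 0.833 to 0.927. By Spearman's rho over the 6 means they ran from 0.03 to 0.83 and none was among the 10 highest, where the ranks of the 5 low conditions of NAR2.2 rest on means that span 0.34 and on neighbours that overlap.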

How the data were processed

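Log2 values were deposited by the authors for 36643 probes on 12 arrays. Per the labels' descriptions, Expression Console made them by RMA over core probe sets; the submitters' processing notes also list Affymetrix Power Tools. The base of the logarithm was taken as 2 from the range, -0.49 to 13.12. The sources used here do not give tool versions, the build or the annotation. Probes were named through the platform table: 24161 have 1 gene, 90 several and 12392 are unnamed here. Names came from the RefSeq gene table (GCF_034140825.1), where all 24161 were found and 2766 have a usable name. No coordinates are printed.

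limma 3.58.1 in R 4.3.3 was fitted to all probes, with 1 coefficient per condition, 6 residual and 3.82 prior degrees of freedom, and was tested on simulated data. NAR2.2 and all gene lists were chosen with earlier results of these data known. List members were matched by symbol patterns, and 3 genes sharing a synonym were left out. Named genes are the transport genes, called members and markers of the other lists, and the 10 most and 5 least alike. NIA1, the NLP genes and the neighbouring genes were added after values were seen. Precision is limited by the number of arrays. Alternatives were another normalization, no dim probes, trend and robust moderation, the compared arrays alone, a replicate block and leaving out each array. Same-numbered arrays did not deviate together, so no block was used.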

Additional observations from a re-analysis of the deposited data

Results flagged for a closer look

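NAR2.2 differed in the direction of its sugar difference between air and AC. Both Glc arrays (5.07 and 4.66) lay above both Mtl arrays (3.37 and 3.05), while both GlcAC arrays (3.14 and 3.25) lay below both MtlAC arrays (3.3 and 3.49), a difference of -0.20 ± 0.21. The difference between the 2 environments was not tested, because the gene was chosen for its pattern over these conditions. The AC difference is no larger than its SE. Conditions with 2 arrays are too small for a check of single arrays that stand apart.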

How the results depend on the processing

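The differences of NAR2.2 that contain Glc kept their direction under quantile re-normalization and median centring. In both settings all 9 differences moved by less than its residual SD of 0.1925. Leaving out 1 array at a time gave 1.45 to 1.86 for glucose over mannitol in air, -2.02 to -1.61 for DNP and -1.87 to -1.46 for AC over air with glucose, and -1.89 to -1.48 and -2.05 to -1.65 for the changes in sugar difference with DNP and under AC; in each the ends are the fits without the first or the second Glc array. The count of called transport genes moved from 0 to 1 in some of these fits for sugar under AC and for DNP and AC over air with mannitol (range 0 to 1), through OsAMT1;1 or OsAMT1;2. Counts over all probes without 1 array were 414 to 746 for sugar in air (733 with all arrays), 0 to 21 with DNP (5), 295 to 1071 under AC (975), 1218 to 1965 for AC over air with glucose (1925), and 241 to 405 and 72 to 403 for the changes in sugar difference with DNP (435) and under AC (423). The lowest counts came without Mtl replicate 1 for sugar in air and for the change with DNP, and without GlcAC replicate 2 for the 3 results that involve GlcAC. Counts moved by over 1.5 times also without Glc replicate 1 (456), Mtl replicate 2 (424), GlcAC replicate 1 (394) and MtlAC replicate 1 (581) for sugar in their own environment, without Glc replicate 2 (1280) for AC over air with glucose, without Glc replicate 1 (287), Mtl replicate 2 (250) and GlcDNP replicate 1 (281) for the change with DNP, and without any 1 of the 8 arrays it involves (72 to 214) for the change under AC. With only the arrays compared they were 464 in air, 0 with DNP (2622 probes had an unadjusted p under 0.05 in the full fit) and 255 under AC. The count for the change under AC was 756 with dim probes left out, 707 under trended, robust moderation and 236 under quantile re-normalization. With a replicate block the count for sugar with DNP was 2, and the block changed no call of a transport gene. Deviations of same-numbered arrays correlated at -0.021 to 0.087 over 15 pairs of conditions, so the numbers do not pair the arrays. The causes were not tested. Since 2 arrays may hold 1 RNA, no value here speaks to separate batches of embryos, and low signals may lie at background.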

Other observations

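Genes with the shape of NAR2.2, high in Glc and even elsewhere, can be counted over the array, as a description of values that chose the gene. Both Glc arrays lay above the other 10 for 2535 probes (6.92%) and below them for 1820 (4.97%). Of the 2535 probes with both Glc arrays above, 162 also had a Glc mean at least 1 above every other condition mean. In 22 of these the other 5 means lay within 0.5. NAR2.2 is one of them, with a spread of 0.34, and among named probes so are ORC3 (0.30) and EXLA3 (0.25). Among named genes the gap was 2.05 in UGD4, a UDP-glucose dehydrogenase gene of cell wall precursor synthesis, but its other 5 means spanned 2.51.

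The 5 named genes most unlike NAR2.2 over the 6 condition means were EL2 (r = -0.930), an inhibitor of cyclin-dependent kinases, a gene named C4 (-0.902), the glutaredoxin gene GRXS5 (-0.890), ADF-3 of actin turnover (-0.880) and the protein phosphatase gene BIPP2C2 (-0.863). All 5 had their lowest condition mean in Glc. EL2 stood at 5.99 in Glc and 6.90 to 7.51 elsewhere, and ADF-3 at 5.79 in Glc and 6.62 to 7.51 elsewhere.

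The genes beside NAR2.2 on chromosome 4 were also read, a choice made after values were seen. Among the 5 nearest measured genes on each side, in the order of the RefSeq table, limma called 0 of 10 for sugar in air (2% of all probes), with log2 differences of -0.34 to 0.59 and 0 at an unadjusted p under 0.05. For DNP over air with glucose the 10 ran from -0.84 to 0.37 and for AC over air with glucose from -0.68 to 0.37. In both limma called 0 of 10 (14% and 5.25% of all probes), with 1 at an unadjusted p under 0.05. Of all probes, 13772 and 7938 had such a p. The 1 neighbour called in any of the 9 contrasts was LOC9266392, lower under AC than in air with mannitol (-1.3 ± 0.26, limma adjusted p = 0.00601; 12.2% of all probes were called there).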
